A study of Rattus norvegicus with 4 samples.

Results

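The neurotrophins and their receptors were examined as the 6 genes Bdnf, Ntf3, Ntf4, Ntrk2, Ntrk3 and Ngfr, chosen by symbol from the 32883 genes listed in the count table, and all 6 were found. Their mRNA was compared between whole carotid bodies (CBs) of neonatal (day 5) and adult (day 21) Sprague Dawley rats, for which no treatment is named, the adults being a share of the litters kept to that age. The CB is the organ at the carotid bifurcation whose glomus cells sense blood oxygen. The labels give 2 libraries per age, each of RNA pooled from 6 pups or 3 adults, while the study's methods describe larger pools and more replicates. The p-values measure the spread between these pools, not between single animals. Library totals ran from 36286191 to 39476110 estimated counts, so that 3 counts, the floor used here, equal 0.0760 to 0.0827 CPM (counts scaled to the library total).

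Neurotrophins are secreted growth factors that keep peripheral neurons alive, guide their axons and later tune their synapses. They are made as pro-proteins and cleaved. The mature forms signal through Trk receptor tyrosine kinases, among them TrkB (Ntrk2) for brain-derived neurotrophic factor (Bdnf) and neurotrophin-4 (Ntf4), and TrkC (Ntrk3) for neurotrophin-3 (Ntf3). All neurotrophins also bind the p75 neurotrophin receptor (Ngfr), which with sortilin receives the pro-forms. In the CB, Bdnf is known as a survival factor for the chemosensory neurons of the petrosal ganglion that innervate glomus cells.

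Bdnf was the member with the largest difference between ages, and it was higher in neonates. Ntrk3 and Ngfr were lower in neonates by less than 2-fold. Differences of Ntf3, Ntf4 and Ntrk2 did not pass the test. Of the other pathway genes reported here, the sorting receptor Sorcs1 was 5.32-fold higher in adults and the neurotrophin-induced Vgf 4.42-fold higher in neonates. In bulk tissue, fewer cells of a type and less RNA per cell cannot be told apart.

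CPM below are rounded estimated counts divided by the library total. Fold changes, neonate over adult, were fitted in edgeR on TMM-scaled libraries by its quasi-likelihood test, and p-values were adjusted by Benjamini-Hochberg across the 13843 genes that entered. TMM shifts the ages against each other. With library totals alone the middle gene stood at -0.25 on the log2 scale in place of -0.0029, so a ratio of plain CPM lies below the fold given. Under TMM 36.8% of the genes called at 2-fold were higher in neonates, and under library totals alone 21.6%. The neonatal replicate 1 library stood apart from its pair in the parathyroid hormone gene Pth (1595 against 194 CPM) and the granin gene Chga (1552 against 740 CPM). Pth was at 0 counts in both adult libraries. Without that library, the log2 fold change was 1.54 for Bdnf, -0.40 for Ntrk3 and -0.40 for Ngfr. That fit holds 1 neonatal library and so no spread between neonatal pools.

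The ligand Bdnf (ENSRNOG00000047466) had 3.22 and 4.13 CPM in the neonatal libraries and 1.93 and 1.38 CPM in the adult libraries. Both neonatal libraries were above both adult libraries, with or without TMM, at low levels of 127 and 159 against 73 and 50 counts. The counting intervals (95%, exact Poisson, covering counting error only) of the libraries of an age overlapped each other. The means were 3.67 ± 0.645 and 1.66 ± 0.392 CPM (SD, n = 2 libraries). The log2 fold change was 1.39 (standard error 0.33, adjusted p = 0.0052 from edgeR), a 2.62-fold higher level in neonates with a 95% interval from 1.57 to 4.37. The call was lost without the adult replicate 2 library, at a log2 fold change of 1.13 (adjusted p = 0.056 from edgeR), and over all alternatives the adjusted p ran from 0.0014 to 0.056.

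Bdnf is transcribed from several starts, each with its own first exon, and cAMP response elements, which CREB binds, are known for its activity-dependent transcription. The counts sum all transcripts of the gene and do not tell its starts apart. Promoters of 300 bases from RefSeq (build GRCr8, not the build of the counts) matched 3 of the 6 members by symbol, with 6 entries for Bdnf, and Ntrk2, Ntrk3 and Ngfr had none. Bdnf is shown because it was the only member past 2-fold. The motif TGACGTNA, searched on both strands, stands in capitals, here as its reverse complement. Entry 1 is shown beside it as one without a match to this pattern, and variants of the element were not searched. The motif was found in the fourth of the 6 Bdnf entries, 38 bases upstream of the start, and in 3.25% of all 33469 RefSeq promoters, each taken singly. The first and the fourth entries, both on the plus strand at chr3:116619383-116619682 and chr3:116637608-116637907, are
Bdnf entry 1: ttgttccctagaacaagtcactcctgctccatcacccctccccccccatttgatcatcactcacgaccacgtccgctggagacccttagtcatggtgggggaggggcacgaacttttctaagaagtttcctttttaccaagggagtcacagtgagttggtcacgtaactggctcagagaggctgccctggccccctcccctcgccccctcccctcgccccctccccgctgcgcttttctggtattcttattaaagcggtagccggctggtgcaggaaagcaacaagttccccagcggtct
Bdnf entry 4: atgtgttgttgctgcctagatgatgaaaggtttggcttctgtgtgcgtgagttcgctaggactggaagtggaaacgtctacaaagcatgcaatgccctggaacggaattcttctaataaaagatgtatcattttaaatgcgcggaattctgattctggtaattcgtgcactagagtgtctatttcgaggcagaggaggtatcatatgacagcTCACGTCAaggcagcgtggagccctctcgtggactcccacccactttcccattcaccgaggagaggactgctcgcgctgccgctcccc
A match describes the letters only, and the other 5 Bdnf entries, the 3 of Ntf3 and the 1 of Ntf4 held none.

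**Figure D1:**
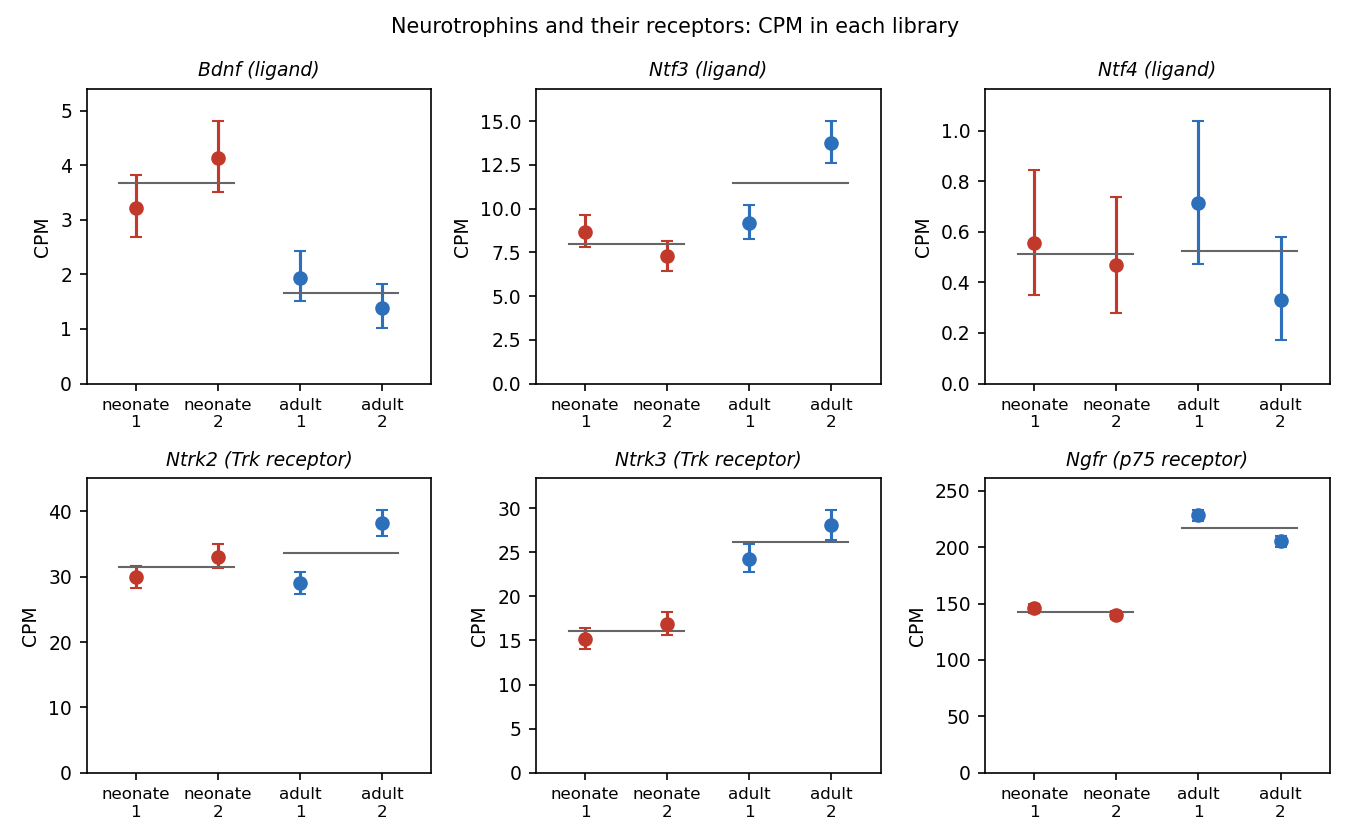
CPM of each member in the 4 libraries, with exact Poisson 95% intervals as bars and the mean of each age as a grey line. For Bdnf the neonatal libraries, at 3.22 and 4.13 CPM, lie above the adult ones, and for Ntrk3 and Ngfr below, while Ntrk2 and Ntf4 overlap between ages.

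Ntf3 (ENSRNOG00000019716), the TrkC ligand, had 8.69 and 7.27 CPM in neonates and 9.19 and 13.8 CPM in adults. The adult libraries differed from each other beyond counting error, and the adult replicate 1 library was close to the neonatal ones. After TMM scaling the ages overlapped (9.63 and 7.77 against 8.50 and 12.6). The log2 fold change of -0.27 (95% interval -0.79 to 0.24, adjusted p = 0.32 from edgeR) did not pass the test. Without the adult replicate 2 library it was 0.0093, so its direction rests on that library.

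Ntf4 (ENSRNOG00000020783), which shares TrkB with Bdnf, had 22 and 18 counts in neonates and 27 and 12 in adults. These equal 0.557 and 0.467 CPM against 0.715 and 0.331 CPM, which is above the floor of 3 counts and under the filter of 1 CPM in at least 2 libraries. Ntf4 was therefore the only member outside the test. Fitted without the filter, its log2 fold change was 0.19 with an interval from -1.38 to 1.75 (adjusted p = 0.84 from edgeR), so a difference was not detectable at this depth.

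Ntrk2 (ENSRNOG00000018839), which encodes TrkB, had 29.9 and 33.1 CPM in neonates and 29.0 and 38.2 CPM in adults. The adult libraries enclosed the neonatal ones. The log2 fold change of 0.15 did not pass the test (adjusted p = 0.32 from edgeR), and its 95% interval from -0.14 to 0.44 leaves out a 2-fold change in either direction. It was -0.092 under library totals alone and -0.053 without the adult replicate 1 library. Counts per gene add the kinase form of TrkB to its truncated forms, which have no kinase domain.

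Ntrk3 (ENSRNOG00000018674), which encodes TrkC, had 15.2 and 16.9 CPM in neonates and 24.3 and 28.0 CPM in adults, with no overlap between ages, also after TMM scaling. Its deposited counts are fractional in both neonatal libraries and were rounded, and the 3 ratios that use it moved by less than the spread between libraries with the deposited counts. The means were 16.04 ± 1.23 and 26.2 ± 2.65 CPM (SD, n = 2 libraries). Its log2 fold change was -0.46 (standard error 0.12, adjusted p = 0.0080 from edgeR), a 1.38-fold higher level in adults with an interval from 1.14 to 1.65. Without the adult replicate 2 library it was -0.39 (adjusted p = 0.056 from edgeR, in a range from 0.0012 to 0.056 over all alternatives).

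Ngfr (ENSRNOG00000005392), which encodes the p75 receptor and is known from Schwann cells and from sympathetic and sensory neurons, had 146 and 140 CPM in neonates and 228 and 205 CPM in adults. Again the ages did not overlap on either scale. The means were 143 ± 4.02 and 217 ± 16.4 CPM (SD, n = 2 libraries), and the adult libraries differed from each other beyond counting error. Its log2 fold change was -0.36 (standard error 0.087, adjusted p = 0.0067 from edgeR), a 1.28-fold higher level in adults with an interval from 1.11 to 1.47. Without the neonatal replicate 2 library it was -0.28 (adjusted p = 0.051 from edgeR, in a range from 0.00033 to 0.051 over all alternatives).

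Of the 5 members tested, 3 passed an adjusted p of 0.05, which is 60.0%, beside 62.3% of all genes tested (31.2% higher and 31.1% lower in neonates). Bdnf alone also passed the 2-fold limit, or 20.0% of 5, beside 20.8% of all genes tested (7.68% higher and 13.2% lower in neonates). Both shares are near the background. The members tested had a median of -0.27 on the log2 scale, and all genes -0.0029. In 3 of the 5, the TMM-scaled libraries of one age lay wholly to one side of those of the other age, as they did in 83.0% of all genes tested (neonates above in 41.3%, adults above in 41.7%). In plain CPM the ages did not overlap in 4 of the 5, neonates above in 1 and adults above in 3, beside 83.1% of all genes (neonates above in 27.9%, adults above in 55.3%).

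**Figure D2:**
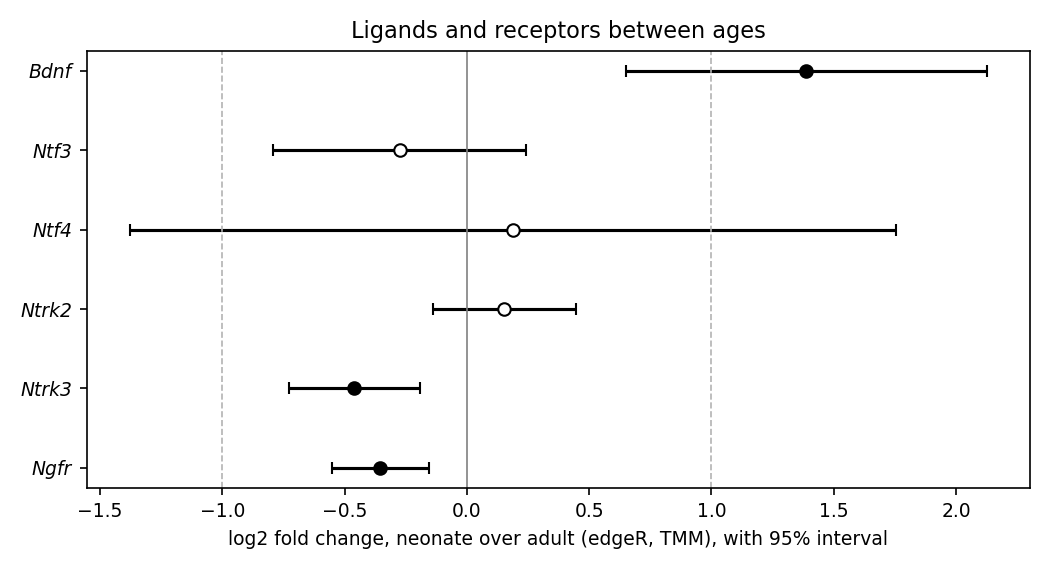
Log2 fold changes, neonate over adult, of the 6 members, with 95% intervals, where filled points have an adjusted p under 0.05 and dashed lines mark 2-fold. Bdnf stands at 1.39, Ntrk3 and Ngfr lie below 0 with their whole intervals, and the interval of Ntf4, fitted without the filter, is the widest.

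Markers of neurons moved in the direction of Bdnf, and opposite to Ntrk3 (log2 fold change -0.46) and Ngfr (-0.36). All 6 tested of 7 neuronal markers were higher in neonates, by log2 fold changes from 0.30 to 1.73. The neurofilaments Nefl, Nefm and Nefh, 3 of them, were past 2-fold. Of all genes tested, 31.2% were higher in neonates by adjusted p, and 7.68% also past 2-fold. Slc17a6, a glutamate transporter of sensory neurons, was under the filter, with 0.0827 to 0.493 CPM. The summed level of the list was 1333 and 1197 CPM in neonates and 1012 and 802 CPM in adults, mostly from peripherin (Prph) and Stmn2. Elavl4, at 0.30, did not pass without adult replicate 1 (0.35) or adult replicate 2 (0.20). The part of the neuronal markers in the results for Bdnf, Ntrk3 and Ngfr was not tested. Of the 5 markers of Schwann and sustentacular glia used, 3 were higher in neonates (Sox10, Erbb3 and Fabp7). Gfap was lower and S100b did not pass the test. The share that passed was 80.0%, beside 62.3% of all genes tested. Fabp7 entered the test through its neonatal libraries alone, at 1.87 and 1.77 CPM against 0.106 and 0.496 CPM in adults. Sox10 (0.31) did not pass without neonatal replicate 1 (0.23) or adult replicate 1 (0.22), and Fabp7 (2.84) stood at 4.27 without adult replicate 2. The summed level of the glial list was 407 and 440 CPM in neonates and 402 and 454 CPM in adults, which overlap, and their part in the lower Ngfr was not tested. The markers listed for glomus cells, led in the mean by Ddc and Th, summed to between 3784 and 5041 CPM in every library. In neonatal replicate 1, Chga was the highest of them, at 1552 of 4862 CPM.

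**Figure D3:**
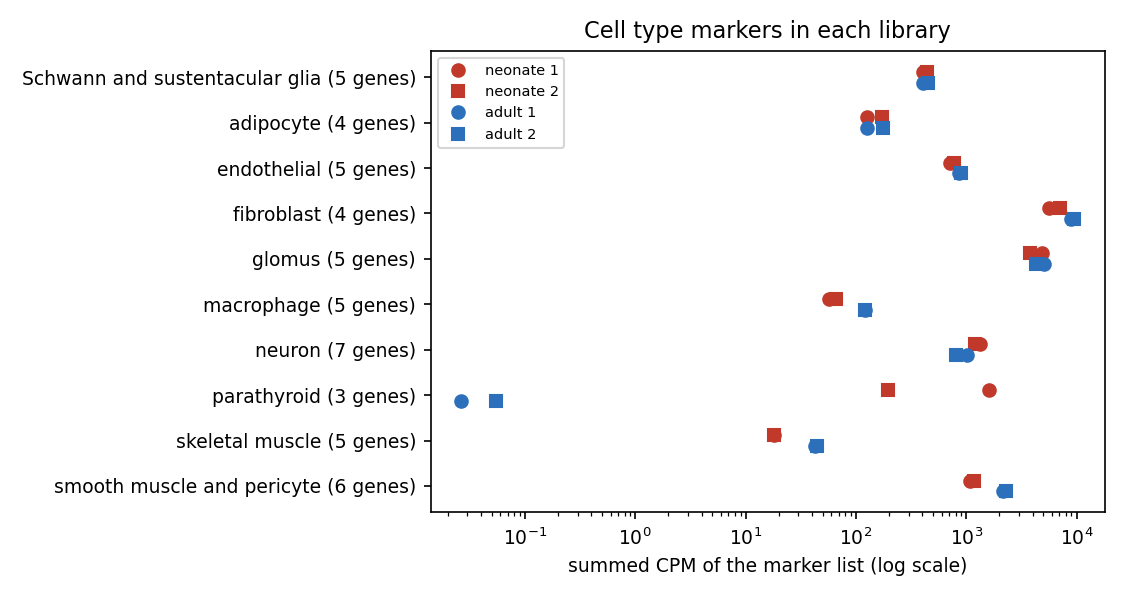
Summed CPM, on a log axis, of marker lists for 10 cell types in the 4 libraries. The neuronal sum is higher in neonates (1333 and 1197 CPM against 1012 and 802), the parathyroid sum is 1616 and 197 CPM in neonates and near 0 in adults, and the glomus sums of the ages overlap.

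Ratios of counts within a library do not depend on its scaling, and were used to set receptors and ligands against each other. With 2 libraries per age, the smallest two-sided p of an exact permutation test is 0.333, so no ratio can reach 0.05. TrkC to TrkB reads (Ntrk3 to Ntrk2) stood at 0.507 and 0.511 in neonates and at 0.837 and 0.734 in adults. The adult ratio was 1.54-fold higher with no overlap between ages (exact permutation p = 0.333, the smallest possible). Ngfr to Ntrk2 was 4.87 and 4.23 in neonates and 7.87 and 5.37 in adults, again without overlap (exact permutation p = 0.333). Against Ntrk3, Ngfr gave 9.60 and 8.28 in neonates and 9.40 and 7.31 in adults, where the ages overlapped (exact permutation p = 0.667).

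Ligands were set against their receptors in the same way. Bdnf to Ntrk2 was 0.108 and 0.125 in neonates and 0.0667 and 0.0361 in adults, 2.36-fold higher in neonates and without overlap (exact permutation p = 0.333). Ntf3 to Ntrk3 was 0.573 and 0.430 in neonates and 0.378 and 0.492 in adults, which overlap (exact permutation p = 0.667). Reads are not corrected for transcript length, so the ratios show unequal change between ages and not which gene has more transcripts.

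**Figure D4:**
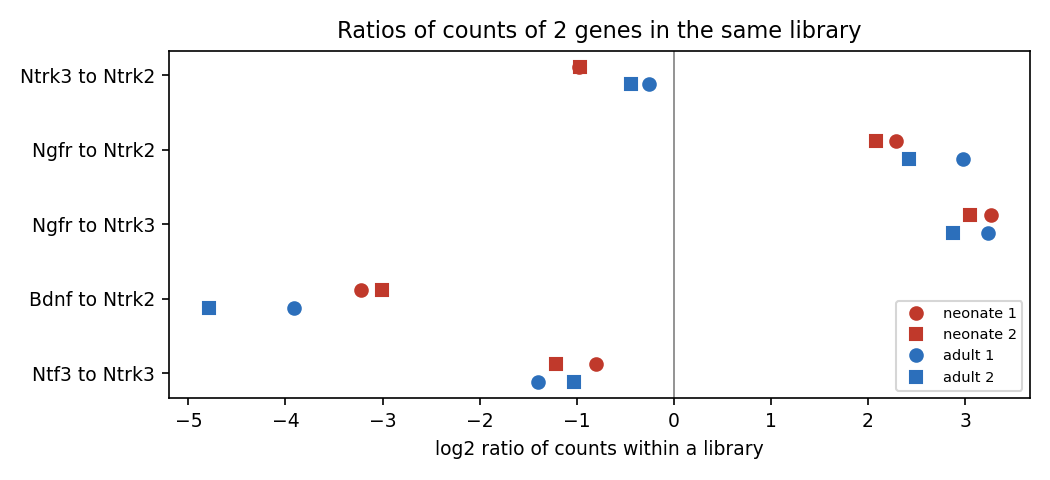
Log2 ratio of the counts of 2 genes in the same library, with neonates in red, adults in blue, circles for replicate 1 and squares for replicate 2. Ntrk3 to Ntrk2 lies at -0.98 and -0.97 in neonates and at -0.26 and -0.45 in adults, and Bdnf to Ntrk2 is higher in both neonatal libraries than in the adult ones.

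The other genes of the pathway were taken from a list of 41 by role, of which 39 had a row and 38 were tested. Of these, 8 rose above and 15 fell below the adult level with an adjusted p under 0.05, which is 60.5%, beside 62.3% of all genes tested. At 2-fold, 1 was higher (Vgf) and 4 were lower (Sorcs1, Sort1, Crk and Arc), which is 13.2% beside 20.8%. The median log2 fold change was -0.13. Under library totals alone 9 were called at 2-fold, 1 higher and 8 lower, and 5 were higher and 21 lower by adjusted p. Of all 13843 genes tested at that setting, 704 were higher and 2549 lower at 2-fold. By adjusted p, 2587 of all genes were higher and 5997 lower, so most genes moved the same way as the list. Single genes are given by role.

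Sortilin binds pro-neurotrophins together with p75, and its relatives are listed here as members of its family. Sorcs1, a sorting receptor of the family, had 16.7 and 17.8 CPM in neonates and 109 CPM in both adult libraries. The fitted log2 fold change was -2.41 (standard error 0.091, adjusted p = 1.4e-06 from edgeR), or 5.32-fold higher in adults. Sortilin itself, Sort1, had 84.9 and 89.5 CPM against 248 and 215 CPM. For Sort1 the log2 fold change was -1.16 (standard error 0.091, adjusted p = 1.5e-05 from edgeR). Both genes were well apart between ages and kept their direction and their 2-fold difference without any one library. Sorcs2 (log2 fold change 0.055) and Sorcs3 (0.48) did not pass the test. Of the 4 tested, 50.0% passed an adjusted p of 0.05, beside 62.3% of all genes tested.

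Of 6 genes for the cleavage of pro-neurotrophins, 3 were lower in neonates and 0 higher. These are 50.0% of the 6, beside 31.1% of all genes tested that were lower and 62.3% that passed in either direction. The pro-protein convertases Furin (-0.39) and Pcsk6 (-0.80) and the tissue plasminogen activator Plat (-0.52) were lower by these log2 fold changes, each short of 2-fold. Pcsk5, Pcsk7 and the plasmin precursor Plg did not pass the test. Plat has fractional estimated counts in every library.

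Partners of p75 went both ways. Bex3, a small p75-binding protein of the death pathway, and Nradd, a p75-like receptor, were higher in neonates by 0.93 and 0.74 on the log2 scale. The p75 signalling adaptors Traf6 (-0.92) and Ripk2 (-0.50) and the co-receptor Lingo1 (-0.45) were lower in neonates. Traf6 did not pass without adult replicate 2 (-0.94). Maged1, Arhgdia and Rtn4r did not pass the test. Bex3 has fractional counts in both adult libraries, and none of the 8 reached 2-fold. Of the 8, 62.5% passed an adjusted p of 0.05, beside 62.3% of all genes tested.

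Of 15 adaptors and effectors tested that active Trk receptors bind, 4 were higher in neonates and 6 were lower. The other 5 did not pass the test, so 66.7% passed, beside 62.3% of all genes tested. The higher ones were Frs3 (0.84), Plcg1 (0.67), which encodes phospholipase C gamma, Sh2b1 (0.38) and Shc2 (0.30), as log2 fold changes. Lower were Crk, Rapgef1 (-0.92), Frs2 (-0.84), Gab1 (-0.63), Ptpn11 (-0.59) and Grb2 (-0.26). Shc2 did not pass without adult replicate 1 (0.36), adult replicate 2 (0.19) or neonatal replicate 2 (0.25). Gab1 did not pass without adult replicate 2 (-0.46), and Grb2 did not without adult replicate 1 (-0.18) or either neonatal library (-0.23 and -0.26). Crk, the adaptor that brings the Rap1 exchange factor Rapgef1 to the receptor, had 9.37 and 9.71 CPM in neonates and 30.0 and 30.2 CPM in adults. Crk stood at -1.41 on the log2 scale (standard error 0.11, adjusted p = 1.6e-05 from edgeR). The related docking proteins Frs2 and Frs3 thus moved in opposite directions, each by less than 2-fold. Shc3, which neurons express, was under the filter with 8, 7, 7 and 0 counts in neonatal replicates 1 and 2 and adult replicates 1 and 2.

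Genes that neurotrophins are known to induce in neurons did not move together. Of the 5 tested, 60.0% passed an adjusted p of 0.05, beside 62.3% of all genes tested. Vgf, which encodes a secreted neuropeptide precursor that neurotrophins induce, had 6.00 and 4.23 CPM in neonates and 1.61 and 1.13 CPM in adults. Vgf stood at 2.14 on the log2 scale (standard error 0.34, adjusted p = 0.00058 from edgeR), or 4.42-fold higher in neonates, and its count in the adult replicate 2 library is fractional. Arc, an immediate early gene of synapses, had 5.02 and 2.49 CPM in neonates and 10.3 CPM in both adult libraries. Arc stood at -1.20 on the log2 scale (standard error 0.32, adjusted p = 0.0099 from edgeR), and it depended on the neonatal libraries, at -1.81 without replicate 1 and -0.74 without replicate 2. Spry2, a feedback inhibitor of receptor kinases, was higher in neonates by 0.45 (not past the test without adult replicate 2, at 0.32, or neonatal replicate 2, at 0.39), and the differences of Egr1 (-0.14) and Dusp6 (-0.24) did not pass the test.

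**Figure D5:**
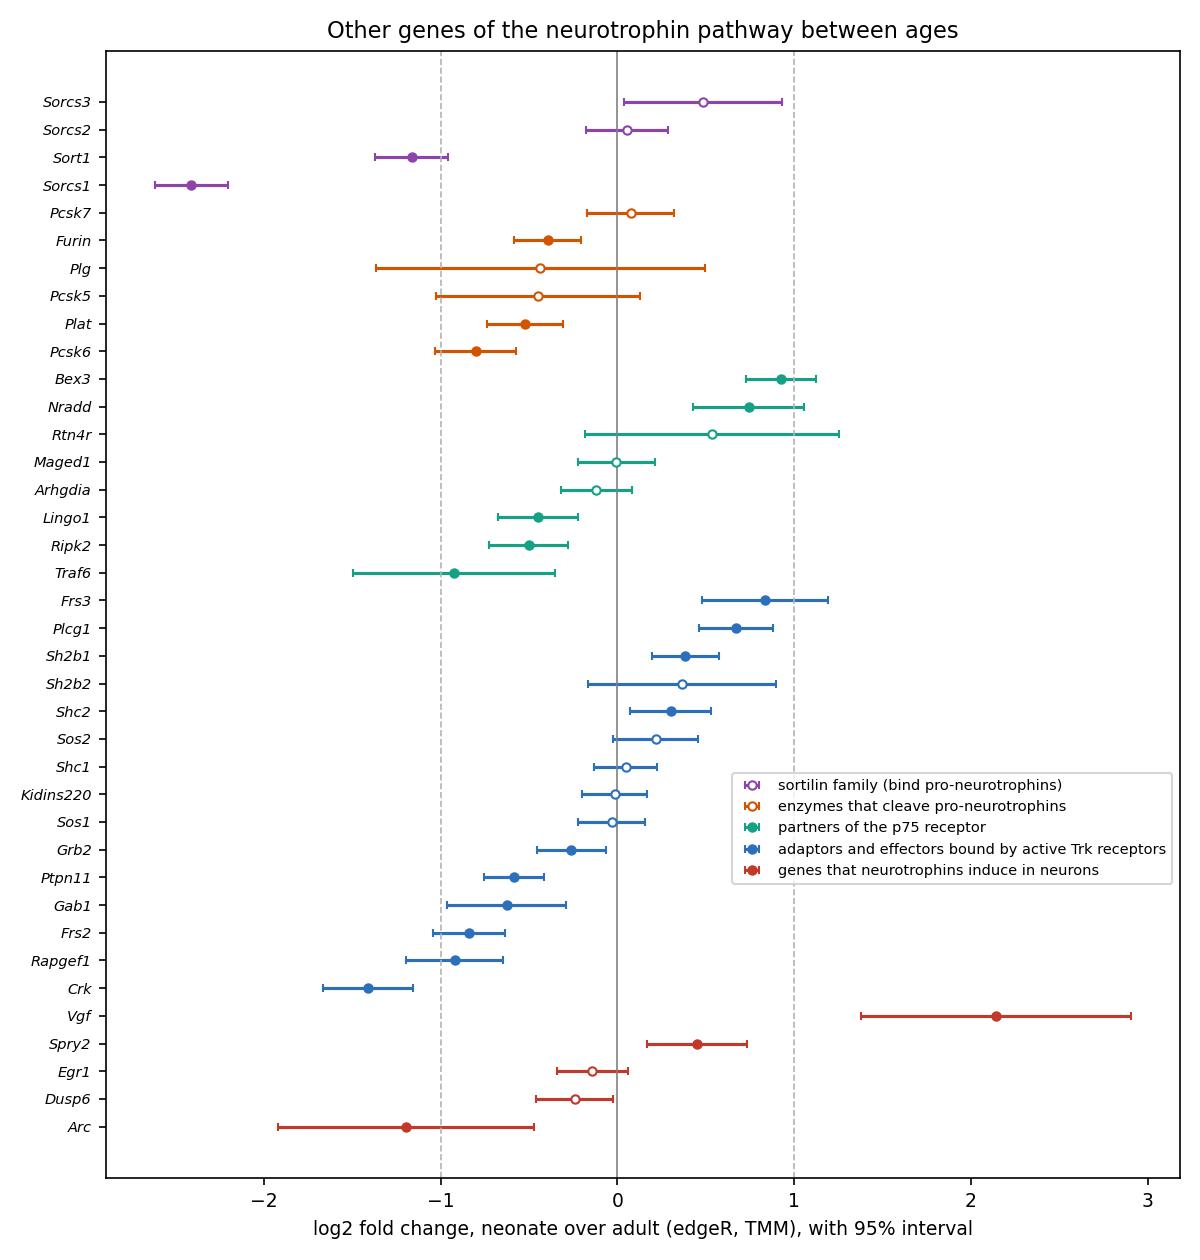
Log2 fold changes, neonate over adult, of the 38 other pathway genes tested, coloured by role, with 95% intervals, filled points at an adjusted p under 0.05 and dashed lines at 2-fold. Vgf (2.14) lies past 2-fold to the right, and Sorcs1 (-2.41), Crk, Arc and Sort1 to the left.

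The profile of each member over the 4 libraries was set against all genes tested with a mean of at least 5 CPM, by the root mean square difference of centred log2 CPM, as a description. Bdnf itself lies under that mean, at 3.67 CPM in neonates and 1.66 CPM in adults, so genes at its level were not compared. Within 0.1 of Bdnf came 4 genes, nearest the noncoding RNA 7SK (0.078) and Dgkk (0.086), a diacylglycerol kinase. Ntf3 had 16 such genes, nearest Egf (0.019) and Chit1 (0.040), whose log2 fold changes of -0.26 and -0.27 did not pass the test either. Around Ntrk2 there were 228, nearest Plekhg3 (0.012) and Tesk2 (0.028). Ntrk3 had 653, nearest Mvk (0.014) and Eml1 (0.017), and Ngfr 704, nearest Zfp358 (0.0028) and Ap1b1 (0.0092). Both receptors that were lower in neonates thus had profiles that many genes share.

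Among the cell type markers, the nearest to Bdnf were the neurofilament genes Nefl (0.25) and Nefh (0.29), which are farther off than its nearest genes overall. For Ntrk3 they were Lum (0.047), a fibroblast proteoglycan, and the smooth muscle gene Tagln (0.062). Nearest to Ngfr were Th (0.092), the enzyme of catecholamine synthesis in glomus cells, and the macrophage receptor Mrc1 (0.12). Ntrk2 lay nearest to Pdgfrb (0.12) and S100b (0.12), and Ntf3 to Myh11 (0.20) and Tek (0.20). These likenesses rest on 4 libraries of 2 ages and say nothing of shared cells or control.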

How the data were processed

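CBs were isolated into RNAlater, total RNA was extracted, and poly A+ libraries were sequenced paired-end. After trimming, the authors ran STAR and Salmon (version 1.5.2 per the labels) against the rat reference Rnor_6.0, and they deposited estimated counts per gene, which are not normalized. The study's methods also name Ensembl 84 for the step from transcripts to genes. Fractional values make up 5.02% to 6.19% of a library's rows. Columns were assigned by the sample descriptions.

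Counts were rounded. Genes annotated by RefSeq (GRCr8, matched by symbol or synonym) as other than protein-coding were removed (636), and 13665 without a matched biotype were kept. A gene was tested if 2 or more libraries reached 1 CPM, in edgeR 4.0.16 (R 4.3.3) by the quasi-likelihood test after TMM, without covariates. A gene was called at an adjusted p under 0.05 and 2-fold. Alternatives used DESeq2 1.42.0, limma-voom (limma 3.58.1), RLE factors, library totals alone, other filters, all genes, no fold limit, a replicate block, and each library left out. Leaving out each library for the single genes of the lists was chosen after seeing the data. Each such fit holds 1 library of the age concerned, so its p-values carry no spread within that age. Ratios of rounded counts (as an alternative, of the deposited counts) and profiles were computed in Python 3.11.15 with scipy 1.17.1. The test was tried on data simulated with the same spread between libraries for all genes and far fewer changed genes than called here. That trial does not give the error rate of the test in these data. Counting intervals cover counting error only. The libraries of an age differed by 32.6 (neonates) and 15.4 (adults) in chi-square per degree of freedom, so each counts as 1 replicate.

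The members and lists were chosen with earlier results of these data known. Named are all members, pathway genes called at 2-fold, the nearest 2 genes and 2 markers to each member tested, and the 2 highest markers of each cell type. Other genes of the pathway list and markers were named to account for each list. Listed genes with no row were not analysed here, and some genes of the first lists are not reported here and were left out of all list counts and sums. Where a symbol had several rows, the one with most reads was used.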

Additional observations from a re-analysis of the deposited data

How the results depend on the processing

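With 2 pools per age, and with 12 to 27 counts per library for Ntf4, the interval of Ntf4 spans a 2-fold change in both directions. With a mean of at least 5 CPM, 1823 genes were called in place of 2885, and 0 members in place of 1, since that filter removes Bdnf. Without a fold limit 8625 genes, 3 members and 23 pathway genes passed. Under library totals alone 9 pathway genes were called in place of 5, and the log2 fold changes of Ntrk2 and Ntf4, which did not pass the test, were -0.092 and -0.030. Leaving out each library in turn gave 0 to 1 members called. It gave log2 fold changes from 1.13 to 1.63 for Bdnf, -0.58 to -0.39 for Ntrk3, -0.47 to -0.28 for Ngfr, -0.56 to 0.0093 for Ntf3, -0.27 to 0.86 for Ntf4 and -0.053 to 0.33 for Ntrk2. Sorcs1, Sort1, Crk, Vgf and Arc kept their direction and an adjusted p under 0.05 under all alternatives that tested them. Of the listed genes that did not pass with all libraries, Pcsk5, Sorcs3, Rtn4r, Sos2, Dusp6, Kdr and Acta1 passed an adjusted p of 0.05 in at least 1 fit with a library left out, in the same direction. Where a call was lost or gained, the cause was not tested. Replicate numbers are shared by both ages, but no label says that they mark a litter or a day. Deviations of same-numbered libraries from their age means correlated at -0.015 across genes. With 2 libraries per age this cannot tell whether they share a litter or a day. With a replicate block, 2937 genes, 1 member and 5 pathway genes were called, and no member gained or lost an adjusted p under 0.05. The ratios with the deposited counts moved by less than the spread between libraries.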

Other observations

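Markers of other cell types of the carotid bifurcation are given by list. Of all genes tested, 62.3% passed an adjusted p of 0.05 (31.2% higher and 31.1% lower in neonates). The endothelial and glomus lists (60.0% each) and the smooth muscle and pericyte list (66.7%) were near that share. The shares of the other lists given here lay farther from it. Whether any list differed from all genes was not tested, so the counts below describe single markers and not cell types. Of 5 macrophage markers tested, 4 were lower in neonates, among them Csf1r (log2 fold change -1.24) and Mrc1 (-0.31), and Cd68 (0.32) did not pass the test. The macrophage list summed to 57.3 and 65.8 CPM in neonates and 120.3 and 120.1 CPM in adults. Of 4 adipocyte markers, Adipoq, Plin1 and Cidec were lower in neonates past 2-fold. Cidec entered the test through its adult libraries alone, at 3.26 and 4.08 CPM against 0.811 and 0.779 CPM in neonates. Fabp4, which vessels also express, was higher in neonates by 0.51 on the log2 scale. Fibroblast markers, led by Col1a1 and Dcn, were lower in neonates in 3 of 4 tested, with Dcn at -1.40 and Col1a1 not past the test (-0.13). Of 6 smooth muscle and pericyte markers, 3 were lower and 1 was higher in neonates. Rgs5, a pericyte regulator of G protein signalling, had the largest of these differences at -1.80, and Pdgfrb was the higher one. Endothelial markers were mixed, with 1 higher and 2 lower of 5 tested, and the highest, Cdh5 and Kdr, did not pass the test. Of the 3 skeletal muscle markers tested, Myh3 was lower in neonates (-1.76), while Acta1 (0.67) and Mylpf (0.54) did not pass the test. Ckm was under the filter, with 0.481 and 0.416 CPM in neonates and 0.847 and 2.26 CPM in adults. Myh8 had 0 counts in all 4 libraries. Of the 5 glomus markers used, Chga (0.80) and Slc18a1 (0.30) were higher and Th (-0.45) was lower in neonates, as log2 fold changes, and each of these rests on single libraries. Chga stood at 0.14 without neonatal replicate 1 (1552 CPM, against 740 in neonatal replicate 2 and 848 and 723 in adults), at 1.27 without neonatal replicate 2, and at 0.65 without adult replicate 2, and it did not pass the test in the first and the last of these. Slc18a1 did not pass without neonatal replicate 1 (0.25) or adult replicate 2 (0.13), nor Th without neonatal replicate 2 (-0.30) or adult replicate 1 (-0.32). Of the other markers, these did not pass without the library named: Mrc1 without neonatal replicate 1 (-0.20) or adult replicate 1 (-0.28), Fabp4 without neonatal replicate 2 (0.30) or adult replicate 1 (0.29), Pdgfrb without neonatal replicate 2 (0.22) or adult replicate 1 (0.21), and Lum without neonatal replicate 1 (-0.31). Among endothelial markers, Tek did not pass without neonatal replicate 1 (-0.26) or adult replicate 2 (-0.25), nor Emcn without neonatal replicate 1 (0.25) or adult replicate 1 (0.20). Myh11 stood at -0.54 and, without adult replicate 2, at -0.34. The parathyroid genes Pth and Gcm2 had 0 counts in both adult libraries and were higher in the neonatal replicate 1 library than in replicate 2 (19.9 against 2.83 CPM for Gcm2).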
